A study of Mus musculus with 6 samples.

Results

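Malat1, Gas5 and Meg3 are long noncoding RNAs, and their share in RNA recovered with Staufen2 was compared with their share in total RNA of a podocyte line. They were taken from a list of 7 long noncoding RNAs and host transcripts of small nucleolar RNAs (snoRNAs), and 3 of the 7 had a probe set listed with 1 gene symbol. The other 4 listed RNAs (Neat1, Kcnq1ot1, H19 and Snhg1) were not analysed here. The whole array table held 19938 genes. For Gas5, which had 4 such probe sets, the brightest over all 6 arrays was the one used.

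The cells were an immortalized mouse podocyte line, grown with gamma-interferon at a permissive temperature and differentiated without it at a higher one. In the kidney, podocytes form part of the filtration barrier. The input group held 3 arrays of total RNA and the pulldown group 3 arrays of RNA brought down with a Staufen2 antibody from cytoplasmic lysate precleared with protein G beads, and both came from the same untreated line. A control antibody pulldown was not analysed here. The input was total RNA and the pulldown came from cytoplasmic lysate, so Staufen2 binding and absence of nuclear RNA cannot be told apart. The labels do not say whether replicates were separate cultures, and p-values therefore reflect the spread among these arrays alone, which may be technical.

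Long noncoding RNAs do not encode a known protein, and many act in the nucleus. Malat1 is an abundant RNA of nuclear speckles, the bodies that store splicing factors. Meg3 is transcribed from the maternal allele of an imprinted domain that also holds snoRNA and microRNA genes. Gas5 belongs to the snoRNA hosts, whose introns are processed into box C/D or H/ACA snoRNAs while the spliced exons reach the cytoplasm and are broken down with the help of translation. Staufen2 is an RNA-binding protein that recognizes double-stranded RNA.

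Many snoRNA hosts are known to start with a C followed by a run of pyrimidines, as the mRNAs of ribosomal proteins do. The starts annotated by RefSeq (build GRCm38.p6) are shown for the snoRNA hosts among the 7 listed RNAs, with 2 starts of Gas5 and 1 of Snhg1, and for Malat1 as a contrast. Each line gives the first 50 transcribed bases, 5′ to 3′, with capitals for the unbroken run of C and T from the first base.
Gas5, first start, chr1:161034601-161034650, plus strand: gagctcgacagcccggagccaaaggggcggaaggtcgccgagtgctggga
Gas5, second start, chr1:161035166-161035215, plus strand: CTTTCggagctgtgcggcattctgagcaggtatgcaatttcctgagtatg
Snhg1, chr19:8723487-8723536, plus strand: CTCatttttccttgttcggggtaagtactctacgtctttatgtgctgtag
Malat1, chr19:5802623-5802672, minus strand: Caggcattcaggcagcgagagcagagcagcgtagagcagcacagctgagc

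The run was 5 bases long at the second start of Gas5, 3 at Snhg1 and 1 at Malat1. It was 0 at the first start of Gas5 and at both of Meg3. Among the other noncoding hosts measured, it was 0 at the starts of Snhg5, Snhg11, Snhg15, Snhg16 and Dancr, and 0 and 6 at the 2 of Snhg17. The run of 6 at Snhg17 began with T and not with C. Of all 32851 annotated starts examined, 4.44% had a run of at least 5 bases, counted whether the first base was C or T. The runs are a description of the annotated starts, and which start the podocyte line used was not measured.

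Array values are on the log2 scale, so a difference of 1 is a 2-fold difference, and differences are pulldown minus input. As equal amounts of RNA were labelled from both sources, they compare shares of the RNA and not amounts. The samples were bulk ones of the same line, and a difference sets recovered RNA against total RNA without showing levels per cell. Genes were tested with limma's moderated test and a call means an adjusted p (Benjamini-Hochberg) under 0.05. Of all genes 48.7% were called, 31.3% as higher in the pulldown and 17.3% as lower. Calls were 64.4% higher ones with the deposited scaling and 52.9% after cyclic loess normalization. The median difference of all genes was 0.04. Correlations over all probe sets were 0.998 to 0.999 between arrays of a group and 0.982 to 0.983 between groups.

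Of the podocyte markers, 8 of 11 measured exceeded 6.54, the median level over the array's probe sets (the array-wide median), among them Wt1 at 9.57 and Synpo at 8.29 in the input, while Nphs1, which encodes nephrin, lay below it at 6.30. Markers of other cells were mixed. Above it in at least 1 group were 2 of 7 endothelial markers, among them Ehd3 at 10.34 in the input, and 2 of 6 immune markers, Cd14 (7.68) and Cd68 (7.38), while Pecam1 (5.62) and Ptprc (5.64) lay below it. Of the tubular and parietal markers 7 of 8 were above it in at least 1 group. So were 7 of 8 mesangial and fibroblast markers, with the smooth muscle actin Acta2 at 13.57. Of the 11 podocyte markers 8 rose and 0 fell (72.7% called), against 48.7% of all genes called and 31.3% higher. Of the 8 above the array-wide median 7 rose, against 5575 of 12156 genes above it. That is 87.5% called, against 72.6% of all genes above it. Summed over the 11 podocyte markers, the linear signal was 19610 to 19990 in the input and 26010 to 26520 in the pulldown. Over 8 mesangial and fibroblast markers it was 19030 to 19270 and 21550 to 22070, and over 6 immune markers it was 534.3 to 564.7 and 450.8 to 481.9. The same sums were 1630 to 1669 and 1938 to 2005 over 7 endothelial markers, and 2853 to 3053 and 3304 to 3365 over 8 tubular and parietal markers. As both groups came from the same line, these shifts are differences in recovered RNA. Their part in the results below was not tested.

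Malat1 fell strongly in the pulldown, Gas5 fell slightly with a call at the edge of the threshold, and Meg3 did not pass the test. Thus 2 of 3 RNAs were called lower and 0 higher, against 17.3% and 31.3% of all genes, and 1 of 3 was at least 2-fold lower, against 2.01%. Input and pulldown values were separate in each of the 3, as for 55.9% of all genes. With 3 RNAs these shares describe the members and no more.

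Malat1 stood at 10.91, 10.68 and 10.36 in input replicates 1, 2 and 3, and at 8.24, 8.29 and 8.91 in the pulldown replicates. All pulldown arrays were below all input arrays, with 1.46 between the nearest values. Pulldown replicate 3 lay above the other pulldown arrays. The mean went from 10.65 ± 0.27 to 8.48 ± 0.37 (SD, n = 3), a log2 difference of -2.17 ± 0.20 (SE, 95% interval -2.65 to -1.70), or 4.51-fold lower (limma adjusted p = 5.25e-05). Its pulldown values remained above the array-wide median. The parts of its nuclear place and of Staufen2 binding in this fall cannot be told apart here.

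The difference of Malat1 was among the lowest on the array, as 0.130% of all genes had a lower one. Of 675 genes that the reference types as lncRNA, 1 had a lower difference, and that gene is the short vault RNA Vaultrc5. The spread of Malat1 between replicates was also wide. The standard error of 0.20 compares with a median of 0.0394 over all genes, and 4 genes had a larger one. Without pulldown replicate 3 the difference was -2.39, and the lowest size was met without input replicate 1, at -2.05.

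**Figure D1:**
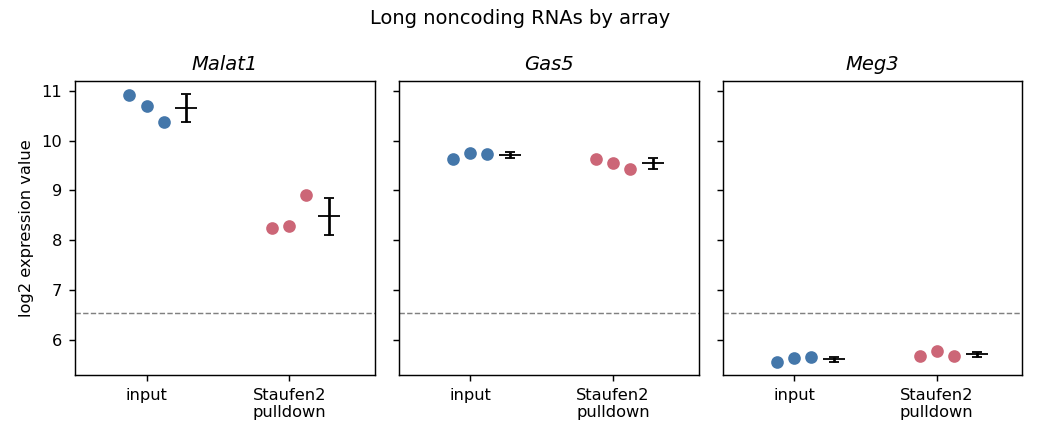
Log2 expression values of Malat1, Gas5 and Meg3 on each of the 3 input and 3 Staufen2 pulldown arrays (points), with the group mean ± SD beside them (bars) and the array-wide median, 6.54, as a dashed line. The Malat1 groups are 1.46 apart at their nearest values, the Gas5 groups nearly touch and Meg3 lies below the dashed line on all arrays.

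Gas5, the snoRNA host named for its rise in growth-arrested cells, had values of 9.64, 9.74 and 9.73 in the input arrays and of 9.64, 9.56 and 9.43 in the pulldown arrays. The groups did not overlap, but the nearest values, input replicate 1 and pulldown replicate 1, were only 0.00090 apart. The mean went from 9.70 ± 0.057 to 9.54 ± 0.10 (SD, n = 3). The log2 difference was -0.16 ± 0.057 (SE, 95% interval -0.30 to -0.03), or 1.12-fold lower, at a limma adjusted p of 0.0499. This call ended with the replicate number as a block (adjusted p = 0.0713), when all probe sets were tested (adjusted p = 0.0811) and when any array other than pulldown replicate 1 was left out (limma adjusted p up to 0.149). Without pulldown replicate 3 the difference was -0.11, and after cyclic loess it was -0.28 (adjusted p = 0.00508).

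The 4 probe sets listed with Gas5 alone differed widely. The second brightest stood at 7.96, 8.22 and 8.51 in the input and at 6.02, 6.03 and 5.97 in the pulldown, a log2 difference of -2.22 ± 0.13 (SE, adjusted p = 3.04e-05 over all probe sets), or 4.66-fold. In the pulldown it was below the array-wide median, near which signal may be background, and its size is therefore uncertain. The other 2 lay below the array-wide median on all arrays, with input means of 5.23 and 4.60 and pulldown means of 4.45 for both, with differences of -0.79 ± 0.23 and -0.15 ± 0.040 (adjusted p = 0.0341 and 0.0255). All 4 were thus lower in the pulldown, with differences from -2.22 to -0.15. With the mean of the 4 probe sets, Gas5 had a difference of -0.83 (limma adjusted p = 3.59e-06). The annotation gives the same RefSeq transcript for all 4 and does not say which exon or intron each covers.

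Malat1 had a further probe set that is listed with the receptor activity modifier Ramp2 as well and so belongs to neither with certainty. It stood at 13.42, 13.46 and 13.46 in the input and at 13.17, 13.30 and 13.20 in the pulldown. Its groups did not overlap, and its difference of -0.22 ± 0.040 (SE, adjusted p = 0.00473 over all probe sets) had the direction of the Malat1 probe set at a much smaller size.

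**Figure D2:**
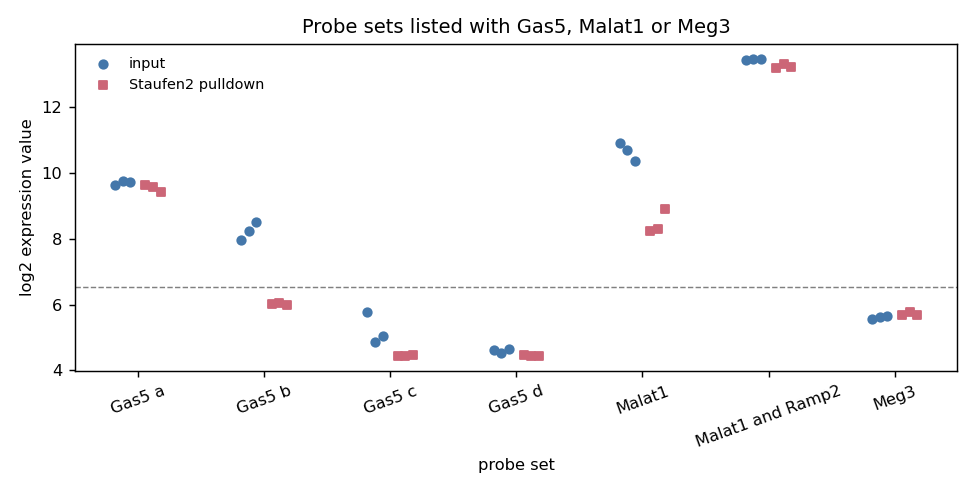
Log2 expression values on each array for all 7 probe sets listed with Gas5 (a to d, by brightness), Malat1 or Meg3, with input as circles, pulldown as squares and the array-wide median, 6.54, as a dashed line. Of the Gas5 probe sets, b shows the widest step between groups (-2.22) and a, the one used, a narrow one (-0.16).

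Meg3 was at 5.55, 5.63 and 5.65 in the input and at 5.68, 5.77 and 5.68 in the pulldown. Every value was below the array-wide median, and the signal may be background. The difference was 0.10 ± 0.040 (SE, 95% interval 0.0051 to 0.19) and did not pass (limma adjusted p = 0.0795). The exact permutation test of 3 against 3 arrays gave p = 0.1 for each of the 3 RNAs, which is the smallest it can give.

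Pattern likeness was measured as the root mean square distance between the 6 log2 values of genes, each centred on its own mean, over 6 arrays. Genes below the array-wide median in both groups were left out. So were those with Gm, Rik, Mir, Snor, Vmn or Olfr symbols, which include snoRNAs and unnamed noncoding genes. Nearest to Malat1 were Pfdn5, a prefoldin subunit, at a distance of 0.174 and a difference of -2.15 ± 0.098 (SE), and Terc, the RNA of telomerase, at a distance of 0.195. Nearest to Gas5 were Tom1l1 (0.0322) and Rhbdd2 (0.0337), with differences of -0.14 and -0.15. Meg3 was too dim for this comparison.

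The other noncoding snoRNA hosts went both ways. Of 20 listed, 6 had a probe set with 1 symbol, and of these 1 rose, 3 fell and 2 were not called, with a median difference of -0.16 against 0.04 for all genes. That is 66.7% called, against 48.7% of all genes. Of the 5 that lay above the array-wide median in at least 1 group, 80% were called, against 72.6% of all genes above it. Snhg15 stood at 7.79, 7.82 and 7.97 in the input and at 7.06, 7.13 and 6.97 in the pulldown, without overlap, and fell by 0.81 ± 0.060 on the log2 scale (SE, limma adjusted p = 1.53e-05). Dancr (-0.19) and Snhg17 (-0.14) also fell.

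Snhg5 went the other way. It stood at 8.18, 8.04 and 8.16 in the input and at 8.48, 8.43 and 8.41 in the pulldown, also without overlap, and was higher by 0.31 ± 0.045 (SE, limma adjusted p = 0.000637). Snhg16 (-0.28, adjusted p = 0.0711) and Snhg11 (0.04, adjusted p = 0.5) did not pass, with input values near the array-wide median at 6.59 and 6.37. Snhg16 did pass after cyclic loess (limma adjusted p = 0.034), where its difference was -0.32.

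Both measured snoRNAs from introns of the listed hosts fell, against 17.3% of all genes called lower. Of 54 measured genes with Snora, Snord or Scarna symbols, 47 were called lower and 0 higher. A fall was thus not particular to the snoRNAs of these hosts. Snord47, a box C/D snoRNA of Gas5, stood at 6.57, 7.41 and 7.05 in the input and at 4.73, 4.88 and 4.63 in the pulldown, a difference of -2.26 ± 0.19 (SE, limma adjusted p = 3.12e-05). Snord22, which lies in Snhg1, stood at 6.99, 6.46 and 6.32 and at 5.41, 5.12 and 5.40, a difference of -1.28 ± 0.17 (SE, adjusted p = 0.000429). In both the groups did not overlap. The pulldown values of both lay below the array-wide median, so the sizes are uncertain.

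Among 32 measured protein-coding snoRNA hosts, 8 rose, 18 fell and 6 were not called (median -0.15), and after cyclic loess 5 rose and 20 fell. All 32 lay above the array-wide median in at least 1 group, and 81.2% were called against 72.6% of all genes above it. Rpl12, which fell by 0.44, lay below it in the pulldown, at 6.46. The lowest were Rps12 at -2.74 ± 0.047 (SE), Rps13 at -2.55 ± 0.064 and Taf1d at -2.51 ± 0.088, each below the -2.17 of Malat1. With the mean of its 9 probe sets Taf1d was at -1.27. Other ribosomal protein mRNAs among the lower ones were Rpl23a at -1.72 ± 0.049, Rpsa at -1.50 ± 0.044 and Rpl7a at -0.81 ± 0.027. Of the higher ones, Dkc1, the pseudouridine synthase of H/ACA particles, rose by 0.64 ± 0.033 and Wdr43, a ribosome assembly factor, by 0.47 ± 0.039. Hosts such as the chaperone gene Hspa8 (0.03 for the brightest of its 3 probe sets), the nucleolin gene Ncl (-0.05) and Eef2 (0.03) did not pass. Ribosomal protein genes have many near-identical copies, and their single values are uncertain.

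**Figure D3:**
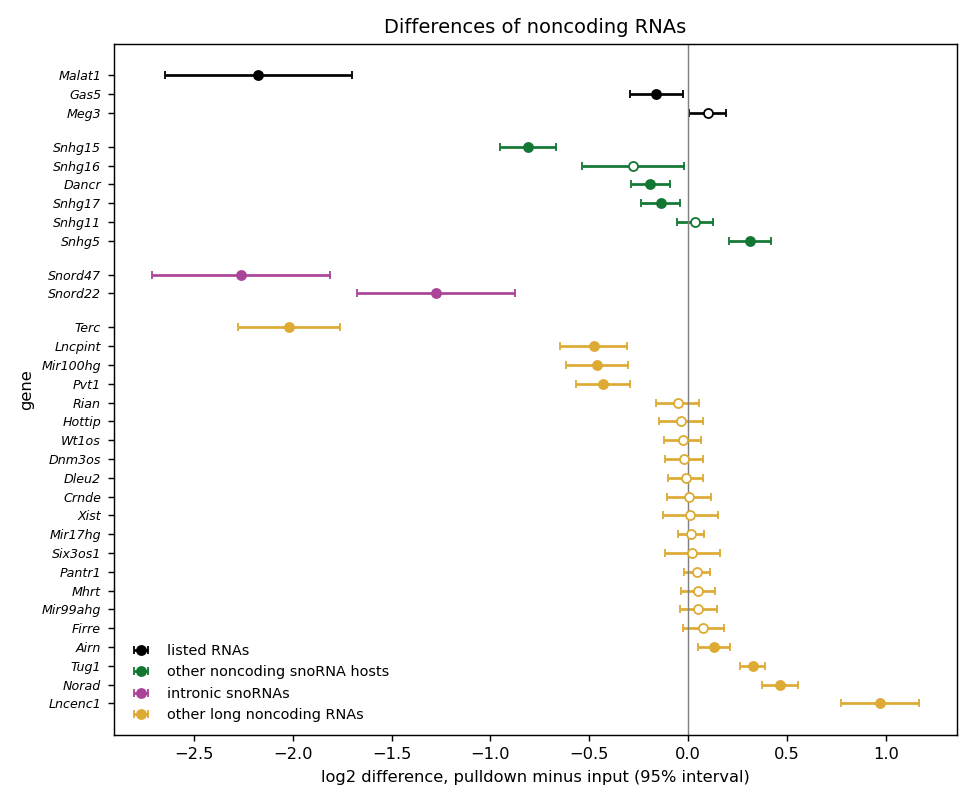
Log2 difference, pulldown minus input, with its unadjusted 95% interval for the 3 listed RNAs, 6 other noncoding snoRNA hosts, 2 intronic snoRNAs and 21 other long noncoding RNAs, filled where the limma adjusted p is under 0.05. Malat1, Snord47 and Terc lie near -2, and Norad, Tug1 and Snhg5 lie between 0.31 and 0.46.

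Other long noncoding RNAs were called in both directions. Of 51 listed, 21 were measured, of which 4 were higher, 4 lower and 13 did not pass. That is 38.1% called, against 48.7% of all genes. Of the 21, 9 lay above the array-wide median in at least 1 group. Among these 9, 66.7% were called, near the 72.6% of all genes above it. The median difference was 0.01. Terc was the lowest, from 10.02, 9.81 and 9.55 in the input to 7.77, 7.70 and 7.86 in the pulldown, a difference of -2.02 ± 0.11 (SE, limma adjusted p = 3.16e-06).

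Norad, a cytoplasmic RNA that binds Pumilio proteins, stood at 11.26, 11.18 and 11.14 in the input and at 11.63, 11.68 and 11.66 in the pulldown. It rose by 0.46 ± 0.039 (SE, limma adjusted p = 2.97e-05). Tug1 went from 12.36, 12.40 and 12.38 to 12.71, 12.72 and 12.69 and rose by 0.33 ± 0.027 (adjusted p = 2.99e-05). Both groups were separate in each RNA. Lncenc1 rose by 0.97 ± 0.083, from an input value of 5.41 to 6.38, both below the array-wide median. Pvt1 (-0.43 ± 0.058 for the brighter of its 2 probe sets) and Mir100hg (-0.46 ± 0.067), the hosts of microRNAs, fell.

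Across all 675 genes typed as lncRNA, 86 were higher, 55 lower and 534 did not pass, which is 20.9% called against 48.7% of all genes. Many of these genes were dim. Of the 206 that lay above the array-wide median in at least 1 group, 48 were higher and 38 lower. That is 41.7% called, against 72.6% of all genes above that level. At least 2-fold differences were found for 4 that were higher and 8 that were lower, Malat1 among the latter.

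**Figure D4:**
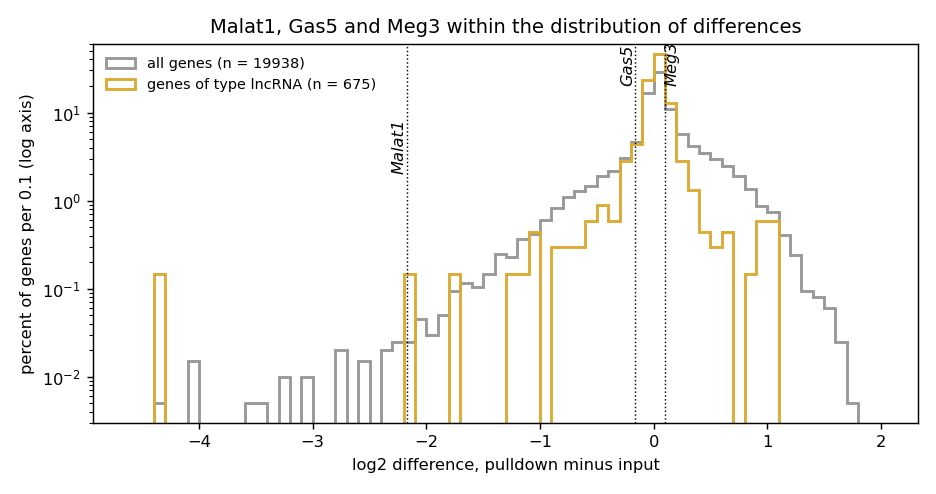
Distribution of log2 differences, pulldown minus input, for all 19938 genes and for the 675 genes typed as lncRNA, as percent of genes per bin on a log axis, with dotted lines at Malat1 (-2.17), Gas5 (-0.16) and Meg3 (0.10). Malat1 lies far out in the lower tail of both distributions, Gas5 below most genes (15.8% of all genes and 55 of the 675 were lower) and Meg3 above most (64.5% and 541 were lower).

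Genes for proteins of nuclear speckles and of paraspeckles, the bodies in which Malat1 and its genomic neighbour Neat1 reside, went both ways. Among 23 measured genes 12 rose, 4 fell and 7 were not called (median 0.14), and after cyclic loess 9 were higher and 7 lower (median 0.03). All 23 lay above the array-wide median, and the 69.6% called was near the 72.6% of all genes above it. The speckle scaffold genes Son and Srrm2 rose by 0.84 ± 0.033 and 0.54 ± 0.032 (SE), and Nono, which encodes a paraspeckle protein that binds Neat1, rose by 0.31 ± 0.026.

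Protein-coding genes of the imprinted domains of H19, Kcnq1ot1 and Meg3 were called in both directions. Among 14 measured genes 3 rose, 2 fell and 9 were not called (median 0.00030), and after cyclic loess 2 rose and 5 fell. That is 35.7% called against 48.7% of all genes, and without any 1 array other than pulldown replicate 3 the genes that fell numbered 1. The growth factor gene Igf2, neighbour of H19, went from 7.11 ± 0.097 in the input to 7.29 ± 0.060 (SD, n = 3) (difference 0.18, limma adjusted p = 0.0299, with groups that overlapped), and its call ended after cyclic loess (adjusted p = 0.0883). Nap1l4 (0.46) and Tssc4 (0.55) of the Kcnq1ot1 domain were higher, and Slc22a18 (-0.19) of the same domain and Dio3 (-0.17) of the Meg3 domain were lower. Of 17 measured microRNA genes, all of which belong to the Meg3 domain, 1 was higher, Mir134 (0.21 ± 0.050), and 16 did not pass. That is 5.88% called against 48.7% of all genes. Only 7 of the 17 lay above the array-wide median in at least 1 group, with 14.3% of these called against 72.6% of all genes above it. The signal of the dim ones may be background.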

How the data were processed

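The authors' deposited table gives each array 1 column of log2 values. They came from RMA, and limma is named too, per the submitters' processing notes. For their versions and for the genome build nothing was given in the sources used here. Usually RMA makes array distributions alike, and the array medians were 6.53 to 6.54. Of 35556 probe sets, 21789 had 1 symbol, 1621 several and 12146 none in the platform annotation. The brightest single-symbol probe set stood for each of 19938 genes, and 19856 matched the RefSeq gene table, from which gene types were taken.

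All 6 arrays were fitted with limma 3.58.1 in R 4.3.3 (2-sided, no covariates, adjusted over all genes). The procedure was tested on simulated data. The members and lists were chosen with earlier results of these data known. All hosts and intronic snoRNAs, and the 6 genes of each other list with the smallest adjusted p, could be named, with the 2 genes nearest to each bright member. Podocyte and other cell markers were named as a check of the label. Lists are described by counts and medians, without a test.

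The replicate numbers are not said to mark pairs and were not taken as such. Deviations of same-numbered arrays from their group means correlated at 0.02, 0.11 and -0.06. With 3 arrays per group these values cannot settle whether the arrays were paired. Alternatives were a replicate block, an intensity trend, cyclic loess, centring on probe sets above the 75th percentile, a filter on dim genes, the mean of probe sets, all probe sets, and leaving out each array. Figures were drawn with matplotlib 3.10.9. The number of arrays limits the precision.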

Additional observations from a re-analysis of the deposited data

How the results depend on the processing

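Malat1 kept its direction and its call under all 13 alternatives, with differences of -2.29 to -2.17, and of -2.39 to -2.05 when each array was left out. Meg3 stayed positive and uncalled under all 12 that gave it a value (0.06 to 0.12). The filter on dim genes removed it. Gas5 kept its direction under all 13 and its call under 6. The call ended with the replicate block, which left the difference at -0.16, and with all probe sets tested, also at -0.16. It also ended in 5 of the 6 fits that left out an array, with differences of -0.21 to -0.11 over the 6. The number of RNAs called lower was 2, but 1 with the replicate block, 1 with all probe sets and 1 to 2 when each array was left out. None was called higher in any. The count of all genes called was 9705, and 8873 to 9288 when an array was left out. It was 9133 to 9731 under the other alternatives that counted genes. With all probe sets tested, 14545 of 35556 probe sets were called, which is not a count of genes. The block ended no other call among the 3 RNAs, and whether the numbers pair the arrays is not stated. The causes of these changes were not tested. Values near or under the array-wide median can be background, which limits Meg3, the dim Gas5 probe sets and both intronic snoRNAs.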

Other observations

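These probe sets were chosen after their values were seen. Of 9 probe sets listed with both a snoRNA and a gene of the host lists, 8 were lower in the pulldown, 0 higher and 1 not called (limma, adjusted over all probe sets, where 18.1% were lower), with a median difference of -1.28. The pulldown values of 7 of the 9 were below the array-wide median. The one listed with Snora24 and Snhg8 had a difference of -1.87 ± 0.19 (SE), whereas the one listed with Snora43 and Snhg7 had one of -0.05 ± 0.048. For 5 of the 9 the host also had a probe set of its own, and in 4 of these the shared probe set had a lower difference than the brightest of the host's own. The probe set listed with Snora28 and Eif5 was at -1.20 ± 0.043, and the one of Eif5 alone at 0.10 ± 0.027. Both listed with Snord14c, Snord14d and Hspa8 were at -1.28, and of 3 listed with Hspa8 alone the brightest was at 0.03 ± 0.026, another also at 0.03 and the third at -0.18 ± 0.039 (adjusted p = 0.0102 over all probe sets). The exception was the one listed with Snord14a and Rps13, at -0.42 ± 0.061, against -2.55 ± 0.064 for the brightest of the 3 listed with Rps13 alone.

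Some other long noncoding RNAs were measured by several probe sets. Both of Norad were higher, by 0.46 and 0.40, and all 3 of Snhg17 were lower, at -0.14, -0.25 and -0.39. Of 4 listed with Mir99ahg, the brightest had a difference of 0.05 and another, at 5.97 in the input and thus below the array-wide median, one of -0.45. The dimmer of 2 listed with Pvt1, at 4.50 in the input, had a difference of -0.08 (limma adjusted p = 0.0716 over all probe sets). The brighter was at -0.43.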
